A study of Homo sapiens with 8 samples.

Results

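NUCKS1, BZW1, EI24, CD180 and PNMA2 are 5 of the 18388 genes measured by SLAM-Seq in U-2OS Tet-ON cells, a human osteosarcoma line that carries the tetracycline-regulated transactivator. They were chosen as candidates for a fall in total RNA but not in new RNA after CGGBP1 knockdown. Their reads are set here against their T-to-C conversions and new-to-total RNA ratios in the same libraries. Total and new RNA of this contrast both bear on the choice, so the values of the 5 genes are described below with their errors and without a test. The knockdown group (siCGGBP1) and the control group (siControl) each held 3 replicates, collected 72 h after transfection with 50 nM siRNA and labelled with 75 µM 4-thiouridine (4sU) for the last 60 min. Single siControl libraries with 0 and 200 µM 4sU complete the 8 libraries. All groups share 1 cell line, the same transfection scheme and DMSO, which every sample title names. The study counts its replicates as biological, while the labels name no separate cultures, so p-values measure the spread between these libraries.

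In SLAM-Seq, 4sU built into RNA made during the pulse is alkylated and read as a T-to-C change. Reads thus report all RNA of a gene. Conversions report its new RNA on top of changes that also occur without 4sU. The libraries were made from RNA 3′ ends. CGGBP1 is a nuclear protein that binds CGG repeats in DNA. The 5 genes have unrelated roles. NUCKS1 is a chromatin-bound phosphoprotein of homologous recombination repair and a paralogue of RAD51AP1. BZW1 is a mimic of the translation initiation factor eIF5. EI24 is a p53-induced membrane protein of the endoplasmic reticulum that is needed for autophagy. CD180 is a Toll-like receptor relative best known from B lymphocytes. PNMA2 is a Gag-like protein of neurons and a paraneoplastic antigen.

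The promoter windows are shown because CGG repeats are the sequence that CGGBP1 binds. Each runs from 250 bases before to 50 bases after a start site in RefSeq (GRCh38.p14), 5′ to 3′ on the gene's strand, with capitals marking runs of at least 2 repeats of CGG or of CCG, its reverse complement.
NUCKS1 chr1:205750133-205750432, minus strand: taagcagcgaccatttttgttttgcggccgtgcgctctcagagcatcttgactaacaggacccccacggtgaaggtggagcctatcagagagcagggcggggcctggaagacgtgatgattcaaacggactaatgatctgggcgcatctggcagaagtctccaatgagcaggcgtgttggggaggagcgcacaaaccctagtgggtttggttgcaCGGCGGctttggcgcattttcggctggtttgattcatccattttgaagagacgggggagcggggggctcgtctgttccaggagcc
BZW1 chr2:200811660-200811959, plus strand: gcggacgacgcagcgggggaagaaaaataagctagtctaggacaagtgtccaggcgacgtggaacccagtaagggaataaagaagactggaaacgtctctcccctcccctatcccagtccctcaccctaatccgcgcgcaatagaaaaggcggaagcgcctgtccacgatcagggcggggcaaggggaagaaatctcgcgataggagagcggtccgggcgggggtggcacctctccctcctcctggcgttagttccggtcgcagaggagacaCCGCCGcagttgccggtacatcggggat
EI24 chr11:125569227-125569526, plus strand: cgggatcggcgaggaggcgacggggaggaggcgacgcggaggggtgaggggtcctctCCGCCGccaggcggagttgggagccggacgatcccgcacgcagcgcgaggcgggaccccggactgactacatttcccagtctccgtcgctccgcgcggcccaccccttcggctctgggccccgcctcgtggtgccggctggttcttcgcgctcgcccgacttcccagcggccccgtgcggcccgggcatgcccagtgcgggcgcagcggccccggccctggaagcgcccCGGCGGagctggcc
CD180 chr5:67196750-67197049, minus strand: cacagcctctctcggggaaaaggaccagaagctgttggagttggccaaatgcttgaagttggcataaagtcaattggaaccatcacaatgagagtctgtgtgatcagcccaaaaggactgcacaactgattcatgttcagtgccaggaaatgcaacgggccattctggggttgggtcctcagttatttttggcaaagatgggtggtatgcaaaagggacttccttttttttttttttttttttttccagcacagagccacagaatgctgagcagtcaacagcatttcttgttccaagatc
NUCKS1 had 1 run of 2 CGG repeats, whose first base lay 35 bases before the start site. The BZW1 window shown, 1 of 4 in the RefSeq table and the one at the canonical start, had 1 run of 2 CCG repeats from position 23 after the start. The other BZW1 windows had 2, 3 and 6 runs of 2 repeats, some of them shared where windows overlap, and GC contents of 70.0%, 73.0% and 78.0%. EI24 had 2 runs, and CD180 had none. No window of these genes held a run of 3 repeats. Over all 35116 promoter windows of this length, 29.6% held a run of at least 2 repeats and 6.21% a run of at least 3. The GC content was 57.0% for NUCKS1, 60.7% for the BZW1 window shown, 77.0% for EI24 and 45.0% for CD180, against a median of 58.7% over all windows. No window was matched for PNMA2.

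Across all genes, between 10127519 and 19011714 reads were counted per library. The 6 libraries at 75 µM 4sU had 0.183 to 0.263 conversions per 100 covered T, the library without 4sU had 0.0638 and that with 200 µM 4sU had 0.218. Replicate 3 stood apart in both groups: the authors' new-to-total RNA ratio was listed at 0 for 56.9% of tested genes in siControl and 58.5% in siCGGBP1, against 22.5% to 31.9% in the other replicates. A minimum of 100 reads in 3 or more of the 6 libraries left 10138 genes, which were compared by edgeR's quasi-likelihood test with Benjamini-Hochberg adjustment. Genes are named called where the adjusted p was below 0.05 and the log2 fold change exceeded 1 in either direction. All 5 genes passed this read minimum. In bulk RNA, fewer cells that express a gene and less RNA per cell cannot be told apart.

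CGGBP1 itself, the siRNA target, had 106, 94.1 and 73.9 RPM (reads per 1000000 counted reads) in the siControl replicates and 18.2, 10.0 and 31.0 in the siCGGBP1 replicates, a log2 fold change of -2.22 (standard error 0.39). All 5 chosen genes were likewise lower in each of the 9 pairs of libraries, and all 5 were among the genes called lower in total RNA. Such calls made up 0.957% of tested genes (97 genes), and calls in either direction 1.41%. Every siCGGBP1 library lay below every siControl library for 12.1% of tested genes. These shares are given for scale only, because the genes were picked from that side of the contrast.

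**Figure D1:**
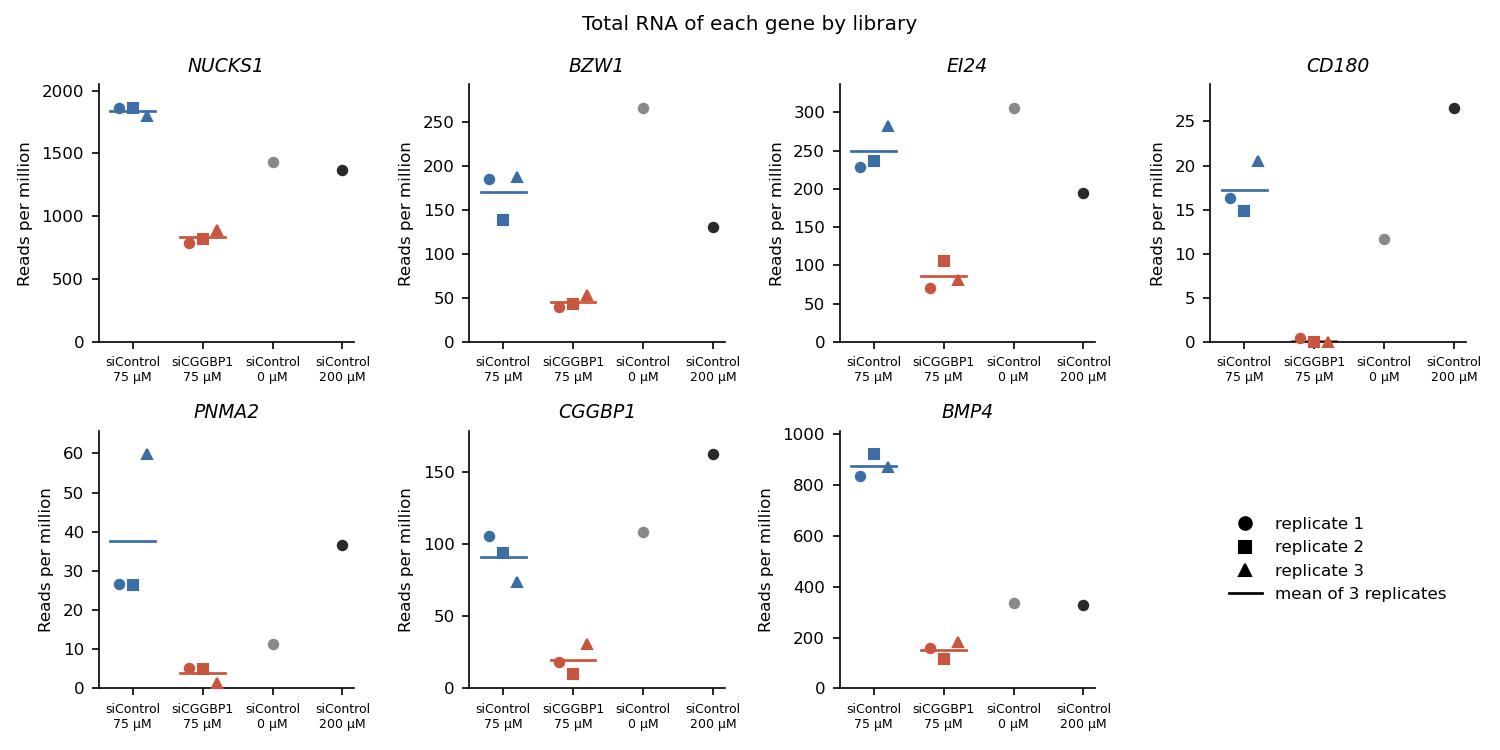
RPM (y axis, linear from 0) of the 5 chosen genes and of CGGBP1 and BMP4 in each library, with groups on the x axis, symbols for replicates and lines for means of 3 replicates. The siCGGBP1 points lie below all siControl points at 75 µM in each panel, and also below the single siControl libraries at 0 and 200 µM in each panel.

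NUCKS1 (ENSG00000069275, chromosome 1, 205712822 to 205750182, minus strand, GRCh38) was lower by about the same share in every replicate, while its conversions overlapped between the groups. It had 1858, 1863 and 1802 RPM in siControl and 789.9, 818 and 894 in siCGGBP1. The groups were far apart compared with their spread. In normalized reads (reads divided by the TMM-scaled library size), siControl averaged 21708 ± 147 (SD, n = 3) and siCGGBP1 9727 ± 647 (SD, n = 3), a log2 fold change of -1.16 (standard error 0.14), or 55.2% less. The siControl libraries with 0 and 200 µM 4sU, which did not choose the gene, had 1432 and 1366 RPM, lower than the 3 siControl replicates and higher than every siCGGBP1 library.

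NUCKS1 conversions numbered 1005, 1268 and 372 in siControl and 628, 694 and 1767 in siCGGBP1. The order of the groups thus differed between replicate 3 and the other replicates. The log2 fold change of the conversions was 0.06 (standard error 0.39). It became -0.37 without siCGGBP1 replicate 3 and -0.32 without siControl replicate 3. In replicates 1 and 2 the siCGGBP1 conversions were lower, and no fit left out both replicate 3 libraries. The value near 0 thus rests on replicate 3. Relative to the T positions that the reads covered, the NUCKS1 rate was 0.227, 0.237 and 0.0696 conversions per 100 T in siControl and 0.339, 0.305 and 0.491 in siCGGBP1. The conversion rate of NUCKS1 was therefore higher in siCGGBP1 in 9 of 9 pairs. Of all tested genes 4.14% showed this pattern, BMP4 among them. That share is given for scale only, because NUCKS1 was chosen by total and new RNA of these libraries. The library without 4sU gave 0.0805 per 100 T (exact Poisson 95% interval 0.0738 to 0.0875, counting error only), so the siControl replicate 3 value of 0.0696 (0.0627 to 0.0770) was no higher than the level without label. The library with 200 µM 4sU was at that level too, with 0.0701 (0.0620 to 0.0790). Reads with at least 2 conversions, which are rare without label, numbered 116.5, 179 and 7 in siControl, 106, 137 and 382.5 in siCGGBP1, and 9 without 4sU. The authors' new-to-total ratio for NUCKS1 was 4.03%, 4.71% and 0.15% in siControl and 7.48%, 5.50% and 9.43% in siCGGBP1.

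BZW1 (ENSG00000082153, chromosome 2, 200810594 to 200827338, plus strand) showed a larger drop in total RNA and conversions that varied widely between replicates. It had 186, 138 and 188 RPM in siControl and 40.1, 43.6 and 52.8 in siCGGBP1. The highest siCGGBP1 value was well under the lowest siControl value. Normalized reads averaged 2015.5 ± 363 (SD, n = 3) and 531 ± 77.6 (SD, n = 3), a log2 fold change of -1.92 (standard error 0.24). The siControl libraries with 0 and 200 µM 4sU had 266 and 131 RPM.

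BZW1 conversions numbered 189.8, 161.8 and 86 in siControl and 79.5, 209 and 16.5 in siCGGBP1, so the groups overlapped. Their log2 fold change was -0.56 (standard error 1.02), with -1.56 without siCGGBP1 replicate 2 and -0.03 without siCGGBP1 replicate 3. Per 100 covered T, the BZW1 rate was 0.265, 0.251 and 0.0926 in siControl and 0.523, 1.08 and 0.0479 in siCGGBP1. Replicates 1 and 2 of siCGGBP1 were above every siControl library, and replicate 3 was below every one. All 6 rates exceeded that without label, 0.0141. The new-to-total ratio followed the same order, with 5.62%, 5.45% and 1.24% in siControl and 9.43%, 29.9% and 1.05% in siCGGBP1.

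EI24 (ENSG00000149547, chromosome 11, 125569280 to 125584684, plus strand) was lower in total RNA and had fewer conversions as well, but its change in new RNA could not be resolved from the spread between replicates. It had 229, 236 and 282 RPM in siControl and 70.4, 105 and 81.3 in siCGGBP1. Its normalized reads were 2941 ± 396 (SD, n = 3) and 998 ± 206 (SD, n = 3), a log2 fold change of -1.56 (standard error 0.22). The 0 and 200 µM siControl libraries had 306 and 195 RPM, again above all siCGGBP1 libraries.

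EI24 conversions numbered 155, 97.5 and 110 in siControl against 16, 82 and 4 in siCGGBP1, without overlap in raw number or after normalization (9 of 9 pairs). The log2 fold change was -1.89 (standard error 1.33). Per 100 covered T, the rates were 0.168, 0.0886 and 0.0733 in siControl and 0.0745, 0.172 and 0.00898 in siCGGBP1, and these overlapped. EI24 in siCGGBP1 replicate 3 was at the rate of the library without 4sU, 0.0111, and the library with 200 µM 4sU gave 0.0131. Reads with at least 2 conversions were 34, 14 and 15 in siControl and 3, 0 and 0 in siCGGBP1. The ratio was 2.35%, 0.89% and 0.91% in siControl, 1.14% in siCGGBP1 replicate 1 and listed at 0 in the other siCGGBP1 replicates.

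CD180 (ENSG00000134061, chromosome 5, 67179613 to 67196799, minus strand) had almost no reads left after knockdown. It had 165.5, 179 and 246 reads in siControl, against 4, 0 and 0 in siCGGBP1. The siControl libraries with 0 and 200 µM 4sU had 222 and 301 reads. Pooled over libraries and scaled to their total reads, CD180 was 155-fold lower in siCGGBP1 (exact 95% interval 60.4 to 572, counting error only). Its 4 siCGGBP1 reads all came from replicate 1.

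The conversions of CD180 could not show whether new RNA was retained. They numbered 23, 1 and 1 in siControl and 0, 0 and 0 in siCGGBP1, where the reads covered 78 T positions in replicate 1 and none in the other replicates. At the pooled siControl rate, 0.112 conversions would be expected over those 78 T. Of the 25 siControl conversions, 23 came from replicate 1, and the library without 4sU had 2. The absence of CD180 from new RNA was thus not measurable at this depth.

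PNMA2 (ENSG00000240694, chromosome 8, 26504701 to 26514092, minus strand) was lower in reads and in conversions. It had 272, 319.5 and 717.5 reads in siControl and 52, 58 and 20 in siCGGBP1, with siControl replicate 3 high and siCGGBP1 replicate 3 low. The pooled difference was 10.6-fold (exact 95% interval 8.85 to 12.8, counting error only), and the fitted log2 fold change was -3.33 (standard error 0.62). PNMA2 had 11.2 RPM in the siControl library without 4sU and 36.6 in that with 200 µM, against 26.4 to 59.8 in the siControl replicates and 1.41 to 5.13 in siCGGBP1.

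PNMA2 conversions were 10, 20 and 68 in siControl and 1, 1 and 0 in siCGGBP1, a pooled 51.6-fold difference with a wide interval (13.9 to 432, counting error only). The fitted log2 fold change of the conversions was -5.35 (standard error 2.48). Of the siControl conversions 68 came from replicate 3, and the pooled difference was 24.3-fold without that library and 31.3-fold without siCGGBP1 replicate 3. Among the compared libraries, the authors' ratio was above 0 only in siControl replicate 3 (5.61%). Its pooled siControl rate would give 5.36 conversions over the T positions covered in siCGGBP1, where 2 were seen. The reads of PNMA2 in siCGGBP1 also covered fewer T each: 45.3, 42.5 and 52.5 covered T per read in siControl, but 22.5, 38.4 and 4.00 in siCGGBP1. The part of this shift in the conversion rate was not tested. PNMA2 overlaps the ends of BNIP3L and DPYSL2 on the opposite strand. Their own total RNA did not pass the threshold. BNIP3L had a change of -0.55 on the log2 scale with an adjusted p of 0.268 by edgeR, and DPYSL2 of -0.78 with 0.119.

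Conversions called lower made up 0.069% of tested genes (7 genes) and newly synthesized RNA called lower 0.0197% (2 genes), and none of the 5 chosen genes was among them. The genes were chosen as not lowered in new RNA, so their absence from these calls is no independent result. At an unadjusted p under 0.05, 580 genes differed in conversions and 319 in newly synthesized RNA by edgeR, and DESeq2's Wald test called 9 and 16 genes lower. Newly synthesized RNA here is the product of reads and the authors' ratio. Every siCGGBP1 library lay below every siControl library in normalized conversions for 5.37% of tested genes, and for EI24, CD180 and PNMA2 of the 5. The 5 genes were chosen for fewer reads, and fewer reads carry fewer conversions, so this share is given for scale only. The rates of EI24 and PNMA2 per covered T overlapped between the groups. For CD180 the order of conversions followed from the near absence of its reads in siCGGBP1 and says nothing of its new RNA. For newly synthesized RNA, the log2 fold change was 0.19 (standard error 0.45) for NUCKS1, -0.23 (standard error 1.75) for BZW1 and -3.65 (standard error 3.22) for EI24. It was -5.46 (standard error 3.73) for CD180 and -6.76 (standard error 4.08) for PNMA2. These errors show that little could be resolved for BZW1, EI24, CD180 and PNMA2 in new RNA. The NUCKS1 value turned to -0.08 without siCGGBP1 replicate 3 and to -0.37 without siControl replicate 3.

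**Figure D2:**
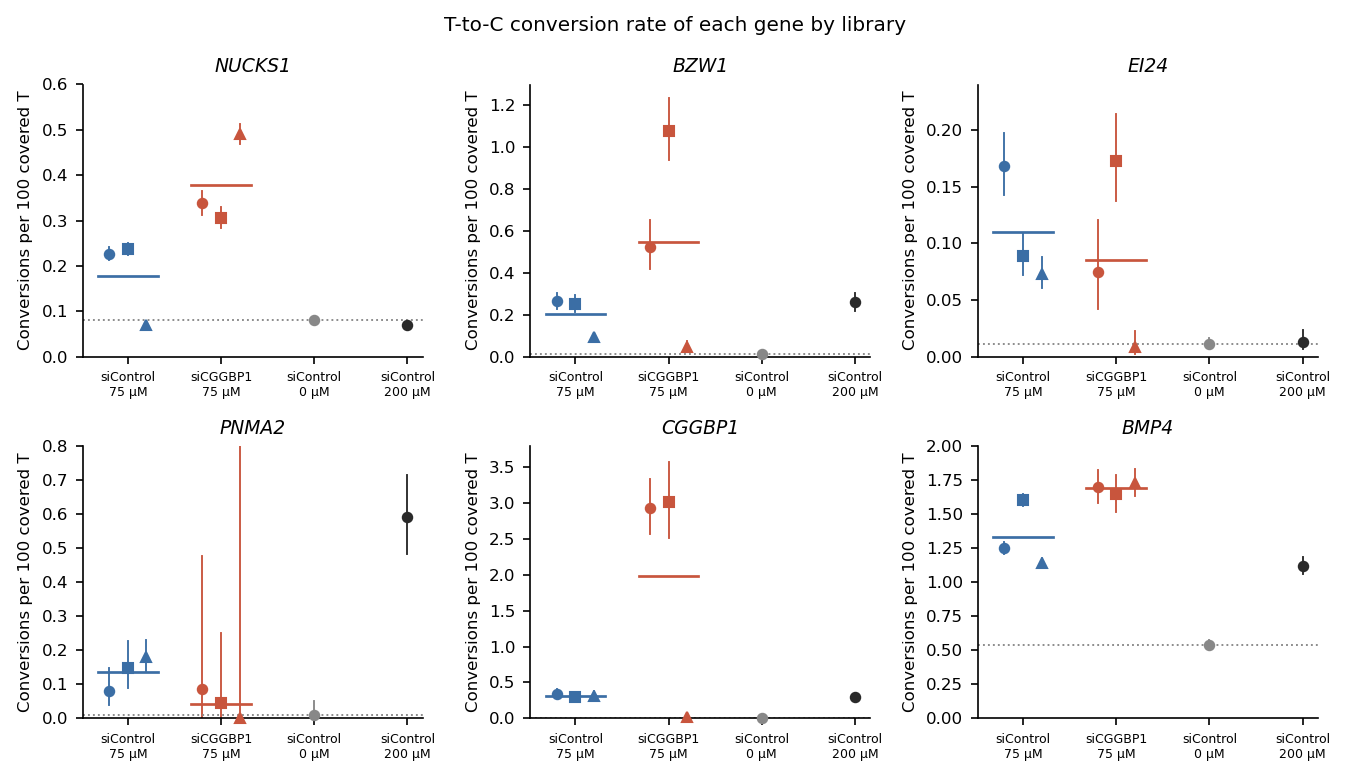
T-to-C conversions per 100 covered T (y axis, linear from 0) by library, with exact Poisson 95% intervals for counting error, symbols for replicates, lines for the means of 3 replicates and a dotted line at the library without 4sU. The upper end of the PNMA2 interval in siCGGBP1 replicate 3 (4.61, from 80 covered T) is outside its panel. NUCKS1 is higher in all 3 siCGGBP1 replicates, BZW1 and CGGBP1 in replicates 1 and 2 only, and EI24 and PNMA2 overlap.

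To set new against total RNA in 1 number, the conversions seen in siCGGBP1 were compared with those that its covered T would give at the pooled siControl rate. NUCKS1 showed 3089 where 1351 were expected, a ratio of 2.29. BZW1 had 305 where 132 were expected, a ratio of 2.31. EI24 had 102 against 117, a ratio of 0.872. Single libraries decided the ratios of BZW1 and EI24. Of the BZW1 conversions in siCGGBP1, 209 came from replicate 2, and without that library the ratio was 1.01, while without siCGGBP1 replicate 3 it was 4.37. For EI24, 82 came from siCGGBP1 replicate 2, and the ratio was 0.294 without that library, 1.38 without siCGGBP1 replicate 3 and 1.13 without siControl replicate 1. The NUCKS1 ratio stayed between 1.72 and 2.84 with any 1 library left out. Its lowest values were 1.72 without siControl replicate 3 and 1.83 without siCGGBP1 replicate 3. Leaving out both of these libraries was not tried.

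Ratios above 1 were frequent among lowered genes. Over the other genes called lower in total RNA, the median ratio was 1.496 (91 genes), and 27 of the 84 with at least 20 expected conversions exceeded 2. Over all tested genes the median was 1.02, and NUCKS1 and BZW1 stood at percentiles 81.5 and 81.9. Genes called lower were selected on the reads that also enter the expected number, so this difference between the sets was not tested. The percentiles are for scale only, because total and new RNA both bear on the choice of NUCKS1 and BZW1. CGGBP1 had 363 conversions against 89.7 expected, a ratio of 4.05, although replicate 3 had only 2 conversions and replicates 1 and 2 had 231 and 130. BMP4, a secreted growth factor lowered in both kinds of RNA, had 2617.5 against 2054, a ratio of 1.27. All these ratios include conversions of the kind seen without 4sU. For BMP4 that rate was 0.537 per 100 covered T, beside 1.33 in pooled siControl.

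Ranked by the conversion minus the total log2 fold change among the 94 called genes with at least 50 siControl conversions, CGGBP1 was number 6, BZW1 number 17, NUCKS1 number 21, EI24 number 79 and PNMA2 number 89. The leading genes were SDHD, FAM98A, MCM5, SLC39A14 and LAMP1, with differences of 3.30, 3.14, 2.59, 2.51 and 2.27. For SDHD, conversions were 39, 20.5 and 11.6 in siControl and 26, 20 and 184 in siCGGBP1, so most came from siCGGBP1 replicate 3. SLC39A14, MCM5 and LAMP1 also had their most conversions in that library (613, 194 and 241), the library in which NUCKS1 had 1767. FAM98A had 74, 50 and 0 in siCGGBP1, with none in replicate 3.

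Partners of each gene, listed by known function with earlier results of these data in view, were then compared in total RNA. The translation factors listed for BZW1 were the only ones with called genes. Of 15 tested, 3 were called lower, where 0.957% of all tested genes were. In this list 14 had a negative log2 fold change, with a median of -0.39 where the median over all tested genes was 0.00. An unadjusted p under 0.05 by edgeR was reached by 8, against 16.4% of all tested genes. By DESeq2, 6 passed the adjusted p, against 5.98% of all tested genes. ATF4, the transcription factor whose translation rises when eIF2 is limiting, had 3562, 4133 and 5435 normalized reads in siControl and 1342, 1657 and 1976 in siCGGBP1, without overlap. It fell by 1.40 on the log2 scale (standard error 0.22, adjusted p = 0.0094, edgeR). EIF3B, an eIF3 subunit, fell by 1.07 (standard error 0.21, adjusted p = 0.0257, edgeR), and EIF2S1, the eIF2 alpha subunit, by 1.04 (standard error 0.22, adjusted p = 0.0351, edgeR).

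EIF3A passed the adjusted p only, at -0.99 on the log2 scale with an adjusted p of 0.0184 by edgeR. It was named after its values were seen. BZW2, the paralogue of BZW1, stood at -0.34 on the log2 scale (standard error 0.21) with an adjusted p of 0.461 by edgeR. Single libraries decided several of these calls. ATF4 lost its call without siCGGBP1 replicate 1 (adjusted p = 0.0732, edgeR). EIF2S1 lost it in 5 of the 6 fits that leave out 1 library, with adjusted p from 0.0846 to 0.1604 and siCGGBP1 replicate 3 as the exception. EIF3B also lost it in 5 of 6, with adjusted p from 0.05004 to 0.135 and siControl replicate 1 as the exception. No listed translation factor passed the adjusted p in conversions.

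Of the 14 repair and cell cycle partners of NUCKS1, none was called, 3 had an unadjusted p under 0.05 by edgeR, and 2 passed the adjusted p by DESeq2. Over all tested genes, 16.4% and 5.98% met these thresholds in total RNA, so the first share is near that of all genes. The median log2 fold change of the list was -0.19, and 10 were negative. SKP2, the ubiquitin ligase subunit whose transcription NUCKS1 is known to promote, had 803, 667 and 1244 normalized reads in siControl and 242, 167 and 450 in siCGGBP1. Its groups did not overlap, and its log2 fold change was -1.66 (standard error 0.40) with an adjusted p of 0.0552 by edgeR and 0.0035 by DESeq2. With 1 library left out, the adjusted p of SKP2 was 0.0125 without siCGGBP1 replicate 3 and 0.0827 to 0.194 in the other 5 fits (edgeR). RAD51AP1, the paralogue of NUCKS1, stood at -0.05 on the log2 scale (standard error 0.43) with an adjusted p of 0.970 by edgeR.

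The autophagy and p53 partners of EI24 were not called in 22 tested of 23 listed, with 4 at an unadjusted p under 0.05 by edgeR and 3 past the adjusted p by DESeq2, the first of these again near the 16.4% of all genes. Their median log2 fold change was 0.00. The lowest p belonged to RB1CC1, the scaffold of the ULK1 kinase complex, with -1.34 (standard error 0.37, adjusted p = 0.0863, edgeR). Of the 3 past the adjusted p by DESeq2, RB1CC1 was lower, while ATG2A and MAP1LC3B were higher (1.62 and 0.88 on the log2 scale). ATG2A and MAP1LC3B were named after their values were seen. Of the 19 Toll-like receptor partners listed for CD180, 8 reached the read minimum and none was called or had an unadjusted p under 0.05 by edgeR, nor did DESeq2 call any. RELA, the NF-κB subunit, came closest with 0.60 (adjusted p = 0.334, edgeR). TLR4, the closest receptor relative in the list, was under the minimum. For PNMA2, 10 of 18 listed relatives and other Gag-like genes were tested and none was called, by edgeR or by DESeq2, with 4 at an unadjusted p under 0.05 by edgeR, where 16.4% of all tested genes were. LDOC1, a Gag-like gene of the same broad family, came closest with 0.65 (adjusted p = 0.199, edgeR).

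The nearest tested gene on each side of the 5 genes was compared in the same fit. Of these 10 neighbours only RAB29, a small GTPase of vesicle traffic 17804 bp from NUCKS1 on the same strand, was called. RAB29 had 788, 568 and 568 normalized reads in siControl and 190.5, 252 and 215 in siCGGBP1, and fell by 1.55 on the log2 scale (standard error 0.33, adjusted p = 0.0341, edgeR). That call was lost in 5 of the 6 fits that leave out 1 library, with adjusted p from 0.0663 to 0.174 and siCGGBP1 replicate 3 as the exception. Conversions of RAB29 were few, with 7, 70 and 3 in siControl and 60, 42 and 0 in siCGGBP1, and their log2 fold change was 0.50 (standard error 1.82). MAST4, 10020 bp from CD180 on the opposite strand, was not called, with 1.04 (standard error 0.31, adjusted p = 0.111, edgeR). STT3A, 7028 bp from EI24, had -0.17 (standard error 0.30, adjusted p = 0.842, edgeR).

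Genes whose total RNA tracked each of the 5 most closely over the 6 libraries, by Pearson's r of log2(normalized reads + 1), were ACTG1 and CCDC86 for NUCKS1 (r = 0.999 and 0.996), and DEPDC1B and CFL2 for BZW1 (0.995 and 0.990). For EI24 they were PRKCA and B4GALNT1 (0.999 and 0.992), for CD180 SH2D5 and MBNL1 (both 0.997), and for PNMA2 INHBA and DNMT1 (0.999 and 0.995). The 6 points of each r fall into the 2 groups, so r mainly reflects the group difference and is given as a description. For ACTG1, cytoplasmic gamma actin, the log2 change was -1.27 (standard error 0.13) in total RNA and -1.33 (standard error 0.33) in conversions, beside -1.16 and 0.06 for NUCKS1; that difference was not tested.

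CD180 and PNMA2 are known from B lymphocytes and neurons, so markers of these cells were read in the same libraries. None of 6 B lymphocyte markers reached the read minimum, and their summed level was 0.00 to 1.97 RPM in siControl and 0.00 to 1.28 in siCGGBP1, with MS4A1 and CD79B at 0. Of 5 neuron markers 3 were tested, with a summed level of 55.0 to 82.5 in siControl and 67.9 to 87.4 in siCGGBP1. Mean SYP and MAP2 were higher in siCGGBP1, and mean SNAP25, RBFOX3 and SYT1 lower. Mesenchymal markers, the expected class for an osteosarcoma line, summed to 3645 to 4377 in siControl and 5358 to 7241 in siCGGBP1, with 5 of 6 tested. Of these, VIM, COL1A1, SPARC and RUNX2 had higher means in siCGGBP1, while CD44 was lower (mean RPM 155 in siControl and 86.2 in siCGGBP1). Epithelial markers summed to 5.54 to 7.83 in siControl and 9.03 to 13.0 in siCGGBP1, with none of 4 tested and CDH1 at 0. The part of these marker shifts in the results above was not tested.

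Reads of these genes may include reads of near-identical copies. GENCODE 44 lists 1 pseudogene of NUCKS1, 2 of BZW1 and 5 of EI24, and fractional read counts, which can arise where a read matches several places, occurred in 6, 7 and 7 of the 8 libraries. Fractional counts occurred in 2 libraries each for CD180 and PNMA2. How such reads were shared between copies is uncertain, so the values of NUCKS1, BZW1 and EI24 carry this limit.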

How the data were processed

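SLAM-Seq of U-2OS Tet-ON cells was analysed from 1 table of 18388 genes and 8 libraries. The expected counts of reads, conversions, covered T and reads with at least 2 conversions were deposited by the authors without normalization, from GRAND-SLAM after rRNA removal with Bowtie2 2.3.0 and mapping to GRCh38 with STAR 2.5.3a (submitters' processing notes). The new-to-total RNA ratio was deposited by the authors as a fraction with credible limits. The notes name no molecular identifiers, so intervals cover counting error only. Posterior shape parameters and double-hit values (30 columns) were not used.

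Expected counts were rounded. Library sizes and TMM factors came from total reads of tested genes for every quantity, and edgeR 4.0.16 (R 4.3.3) fitted siCGGBP1 against siControl, 3 libraries each. Libraries with 0 and 200 µM 4sU entered no fit. A standard error is the size of the log2 change over the root of its F value. A missing ratio (no reads) counted as 0 new reads. Intervals of counts were computed with scipy 1.17.1. The fits were checked on simulated data.

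Gene positions came from GENCODE 44 (18198 of 18388 identifiers matched) and promoter sequences from RefSeq. The 5 genes, partner lists and markers were chosen with earlier results of these data known. Named besides them were CGGBP1 and BMP4, the called partners, the paralogues, the partner with the lowest p where no list member was called, the nearest tested neighbours, the 2 genes of highest r, and the 5 called genes with the largest conversion excess. Alternatives were DESeq2 1.42.0 (Wald test), its size factors, no read filter beyond 1 read, subtraction of the conversion rate without 4sU, reads with at least 2 conversions, the posterior mean ratio, TMM on new reads, a replicate block and leaving out each replicate. The siRNA sequences were not analysed here.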

Additional observations from a re-analysis of the deposited data

Results flagged for a closer look

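The siControl library with 200 µM 4sU entered no comparison. BZW1 had 0.260 conversions per 100 covered T there (exact Poisson 95% interval 0.220 to 0.304, counting error only), above the 0.0141 (0.0094 to 0.0202) of the library without 4sU. PNMA2 had 0.592 (0.484 to 0.716), above 0.0092 (0.0002 to 0.0510) without 4sU and above all 3 siControl replicates at 75 µM, the highest of which was 0.180. PNMA2 also had 52 reads with at least 2 conversions in that library and 0 in every other library. NUCKS1, EI24 and CD180 were not above the library without 4sU beyond their intervals.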

How the results depend on the processing

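Genes called lower in total RNA numbered 201 by DESeq2 and 202 without the read filter, against 97, and 33 to 100 with 1 library left out. In conversions they numbered 3 after subtraction of the rate without 4sU and 2 from reads with at least 2 conversions, against 7, and 2 to 11 with 1 library left out. In newly synthesized RNA they numbered 16 by DESeq2 and 4 with the posterior mean ratio, against 2, and 1 to 4 with 1 library left out. From reads with at least 2 conversions, the log2 fold change was 0.87 for NUCKS1, -4.19 for EI24, -4.03 for CD180 and 0.00 for PNMA2, which had none. In newly synthesized RNA, NUCKS1 turned to -0.021 with TMM on new reads, and PNMA2 was -2.30 with the posterior mean ratio. DESeq2 called 1 partner of NUCKS1 and 2 of EI24, of which RB1CC1 was lower and the other higher. A tract of at least 2 CGG or CCG repeats was found at 3 genes and of at least 3 at 0.

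With 1 library left out, total RNA kept its direction for all 5 genes: -1.21 to -1.12 for NUCKS1, -2.07 to -1.83 for BZW1, -1.74 to -1.44 for EI24, -10.71 to -6.45 for CD180 and -3.60 to -2.80 for PNMA2. Conversions ranged from -0.37 to 0.30 for NUCKS1, from -1.56 to -0.03 for BZW1, from -3.56 to -1.34 for EI24, from -6.79 to -3.18 for CD180 and from -5.79 to -4.25 for PNMA2. Newly synthesized RNA ranged from -0.37 to 0.68 for NUCKS1, from -1.66 to 0.32 for BZW1, from -8.35 to -3.08 for EI24, from -6.04 to 0.00 for CD180 and from -7.38 to 0.00 for PNMA2. NUCKS1 turned negative without replicate 3 of siCGGBP1 (-0.08) or siControl (-0.37), and BZW1 turned positive without siCGGBP1 replicate 3 (0.32) or siControl replicate 1 (0.23). The ratio of mean conversion rates, siCGGBP1 over siControl, was 2.13 (1.63 to 2.55) for NUCKS1 and 2.71 (1.41 to 3.95) for BZW1. It was 0.775 (0.379 to 1.12) for EI24 and 0.319 (0.165 to 0.479) for PNMA2. EI24 passed 1 without siControl replicate 1 (1.05) or siCGGBP1 replicate 3 (1.12). After subtraction of the rate without 4sU, these ratios were 3.06 for NUCKS1, 2.84 for BZW1, 0.749 for EI24 and 0.270 for PNMA2. Called partners numbered 0 to 2 for BZW1 and 0 to 1 for NUCKS1. In an alternative chosen after seeing the data, leaving out 1 library moved the ratio of observed to expected conversions over 1.72 to 2.84 for NUCKS1, 1.01 to 4.37 for BZW1 and 0.294 to 1.38 for EI24 (1.13 without siControl replicate 1), and the pooled PNMA2 difference over 24.3-fold to 74.3-fold. RAD51AP1 ranged from -0.67 to 0.35 and turned to 0.21 and 0.14 without siCGGBP1 replicate 1 and 2 and to 0.35 without siControl replicate 1.

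The labels number the replicates alike in both groups and do not say what a shared number means. Same-numbered libraries deviated together weakly (r = 0.105, 0.172 and 0.0835), and every library correlated best with its own number. Between libraries of different numbers, r was -0.0989 to -0.0193. Deviations were taken from the mean of each group and cancel within it, so these negative values are no separate result. A shared replicate effect is therefore possible, and the main fits did not model it. With a replicate block, 107 genes were called lower in total RNA, 3 in conversions and 1 in newly synthesized RNA. Newly synthesized RNA was then -5.67 for EI24, -2.89 for CD180 and -4.17 for PNMA2, 1 partner each of NUCKS1 and EI24 was called, and the adjusted p of RAB29 was 0.0507 (edgeR). The causes of these shifts were not tested. The depth of conversions, under 100 in each compared library for CD180 and PNMA2, limits what these fits can resolve.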
